A study of Mus musculus with 24 samples.

Results

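Pineal glands of control mice taken at night were compared with glands of control mice taken by day. The comparison used 6 of the 24 arrays of the series, 3 pools at ZT20 and 3 pools at ZT6, chosen by the tissue, genotype and time in the sample titles. All 18193 genes with a single symbol were described, each by 1 probe set, the one with the highest mean signal over the 24 arrays. The series measured RNA on Affymetrix Mouse 430 2.0 arrays to follow gene expression in pineal gland and retina after loss of NeuroD1, a basic helix-loop-helix factor of photoreceptors and pinealocytes. The mice of both groups compared here were C57BL/6J, of both sexes and 2 months old, and had floxed NeuroD1 on both chromosomes (NeuroD1flox/flox) but no Crx-Cre transgene, so that NeuroD1 was intact. They were kept in 12 h of light and 12 h of dark. ZT6 (zeitgeber time, hours after lights on) lies in the light phase, and ZT20 lies in the dark phase, when tissue was taken under dim red light. Each array held RNA of 6 pooled glands, so that a p-value here rests on the spread between pools and not between single mice. In the fit used, that spread was in large part shared over genes. The conditional knockout (cKO) groups, which also enter the fit, the filter on dim genes and the choice of genes for a check of the pools, had the same floxed alleles with Cre driven by Crx, a gene active in photoreceptors and pinealocytes. Their Neurod1 signal was 47.8 ± 30.9 (SD, n = 3 pools) at ZT6 but 960 ± 937 at ZT20, against 4974 ± 312 and 3622 ± 618 in controls. The night libraries labelled cKO thus had a higher mean Neurod1 signal than the day ones. Their SD was nearly as large as that mean, so the night pools differed widely. The place of its probe set relative to the deleted stretch was not analysed here.

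The pineal gland makes melatonin at night. Darkness lets the clock of the hypothalamus drive sympathetic nerves that release noradrenaline onto pinealocytes, where beta1 and alpha1 adrenergic receptors raise cyclic AMP (cAMP). Protein kinase A then acts on the factor CREB at cAMP response elements, and the transcript of Aanat, the N-acetyltransferase that sets the pace of melatonin synthesis, rises in rodents. Pinealocytes are related to photoreceptors, share with them homeobox factors such as Crx and Otx2 and several phototransduction genes, and also carry a clock of their own.

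Signals are the deposited intensities in array units, and changes are log2 differences (ZT20 minus ZT6) of signal + 16, given ± their standard error (SE) from a limma fit of all 12 pineal arrays. Medians of the 6 arrays ran from 130.0 to 158.8 units, and replicate arrays correlated at r = 0.990 to 0.992 across probe sets. Genes that define the pinealocyte were bright in every pool: Tph1, the tryptophan hydroxylase that starts melatonin synthesis, at 11350 to 12566, the decarboxylase Ddc at 9042 to 10704 and Crx at 7997 to 11559. A night pool stood apart. Over 117 genes that were higher by 1 log2 or more at night in the cKO gland, whose arrays are not those compared here, ZT20 pool 2 reached a median of 70.4% of the log2 distance from the day pools to the other night pools, against 103% for pool 1 and 135% for pool 3. Over 113 genes higher by day in the cKO gland it reached 45.3%, against 153 and 116%, and it was the night pool nearest to day in 86.7% of them. After centring each array on its median these values were 61.9 and 56.9%. Leaving it out made 90 of the 109 changes named here that passed larger in size, and the values without it are given where they matter. In tissue as a whole, fewer cells of a type and less RNA per cell cannot be told apart.

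At an adjusted p under 0.05 (Benjamini-Hochberg over 11984 genes tested, those above the array median on at least 3 of the 12 pineal arrays), 990 genes passed (8.26%). Of these, 615 (5.13%) were higher at night and 375 (3.13%) were lower. The rises reached further than the falls: 139 genes rose by 1 log2 or more and 75 fell by as much, 19 rose by 2 or more and 1 fell by as much, and 7 rose by 3 or more. Both medians were alike in size, 0.72 among the genes that were higher and -0.71 among those that were lower, beside 0.02 over all genes tested. The night and day pools did not overlap for 603 of the higher and 342 of the lower genes, while among all genes tested 14.3% had all night pools above all day pools and 11.3% had all below. Pools apart were thus the rule among genes that passed and add little to a call. Of the higher genes 40 lay below the array median in all 3 day pools and above it in all 3 night pools, and 32 of the lower genes did the opposite. For most genes that passed, 522 of those higher and 296 of those lower, every pool lay above the median.

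The counts moved with single pools and with scaling. Without ZT6 pool 1, 598 genes passed (298 higher, 300 lower), and without ZT20 pool 3, 658 (379 and 279). The lower count was 225 without ZT6 pool 2, 194 without ZT6 pool 3 and 185 without ZT20 pool 1, while without ZT20 pool 2 there were 529 higher and 495 lower. On quantile-normalised values 3093 genes passed (1472 higher and 1621 lower), of which 976 were among the 990, and the share of higher calls was 47.6% in place of 62.1%. Centred on medians it was 1825 (1076 and 749), and with arrays scaled to a common trimmed mean 2668 (1276 and 1392, 47.8% higher).

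The largest rise at night was in Gng4, a gamma subunit of heterotrimeric G proteins (chromosome 13). Its signal was 96.9, 103 and 98.6 in the day pools and 2671, 1195 and 3219 in the night pools. All night pools lay far above all day pools, and the change was 4.25 ± 0.22 (adjusted p = 3.25e-33). E2f8, an atypical E2F factor that represses cell cycle genes, read 70.4, 84.2 and 84.0 by day and 1692, 803 and 1917 at night. The groups were again far apart, with pool 2 the lowest of the night pools, at 3.87 ± 0.22 (adjusted p = 2.92e-30). Cpm, a membrane carboxypeptidase that trims peptides, rose from 30.7, 38.2 and 42.5 to 658, 456 and 1182 (3.78 ± 0.25, adjusted p = 1.31e-25). Tunar, a neural transcript first described as noncoding, rose from 18.6, 74.3 and 73.0 to 908, 578 and 1071 (3.69 ± 0.25, adjusted p = 9.13e-25). Both were dim by day, in a range where the added 16 units understate a fold. Without ZT20 pool 2 the changes of Gng4, E2f8, Cpm and Tunar were 4.67, 4.25, 4.09 and 3.94. On quantile-normalised values they were 4.33 ± 0.32, 3.96 ± 0.28, 3.84 ± 0.35 and 3.79 ± 0.38. Their adjusted p by limma were then 1.04e-06, 6.7e-07, 6.03e-06 and 1.51e-05, so the size of an adjusted p depended strongly on the scaling.

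Next came Aanat, the reference gene of the night gland (chromosome 11). Its signal was 387, 608 and 708 by day and 4715, 3549 and 5602 at night, with every night pool far above every day pool. The means were 567 ± 164 (SD, n = 3 pools) and 4622 ± 1030, a ratio of 8.15, and the change was 3.01 ± 0.19 (adjusted p = 1.79e-27). Mctp2, a membrane protein with C2 domains, read 41.1, 34.2 and 38.9 by day and 578, 194 and 601 at night (2.98 ± 0.30, adjusted p = 2.06e-14), and pool 2 stood far below the other night pools. Stc2, the secreted glycoprotein stanniocalcin 2, rose from 80.0, 136 and 139 to 906, 715 and 1423 (2.92 ± 0.22, adjusted p = 3.99e-22). Gulo, which makes vitamin C in mice, rose from 42.5, 49.8 and 139 to 613, 419 and 742 (2.81 ± 0.24, adjusted p = 3.91e-18). Kcnc1, the fast potassium channel Kv3.1, rose from 202, 208 and 243 to 1514, 1200 and 2052 (2.75 ± 0.20, adjusted p = 8.35e-23). In all 5 genes the night pools lay above the day pools with no overlap, which was a condition for being listed among the largest rises.

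The other large rises were in a transposase-derived gene, a cytokine, adhesion molecules and a receptor. They were Pgbd1 (2.59), Ifng, which encodes interferon gamma (2.39), Tpbgl (2.35), the synaptic adhesion molecule Lrfn2 (2.18), Cckbr, the cholecystokinin B receptor (2.10), and Frmpd1, a protein with FERM and PDZ domains (2.06). Their day pools did not overlap their night pools, again by the condition for being listed. Ifng was dim by day, at 13.4, 8.1 and 29.5, and read 171, 115 and 172 at night, while Cckbr read 117, 154 and 165 by day and 649, 551 and 837 at night. In Tpbgl the lowest night pool was pool 1 (260, against 420 and 481), in contrast to the other 14 genes of this group, where pool 2 was lowest.

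**Figure D1:**
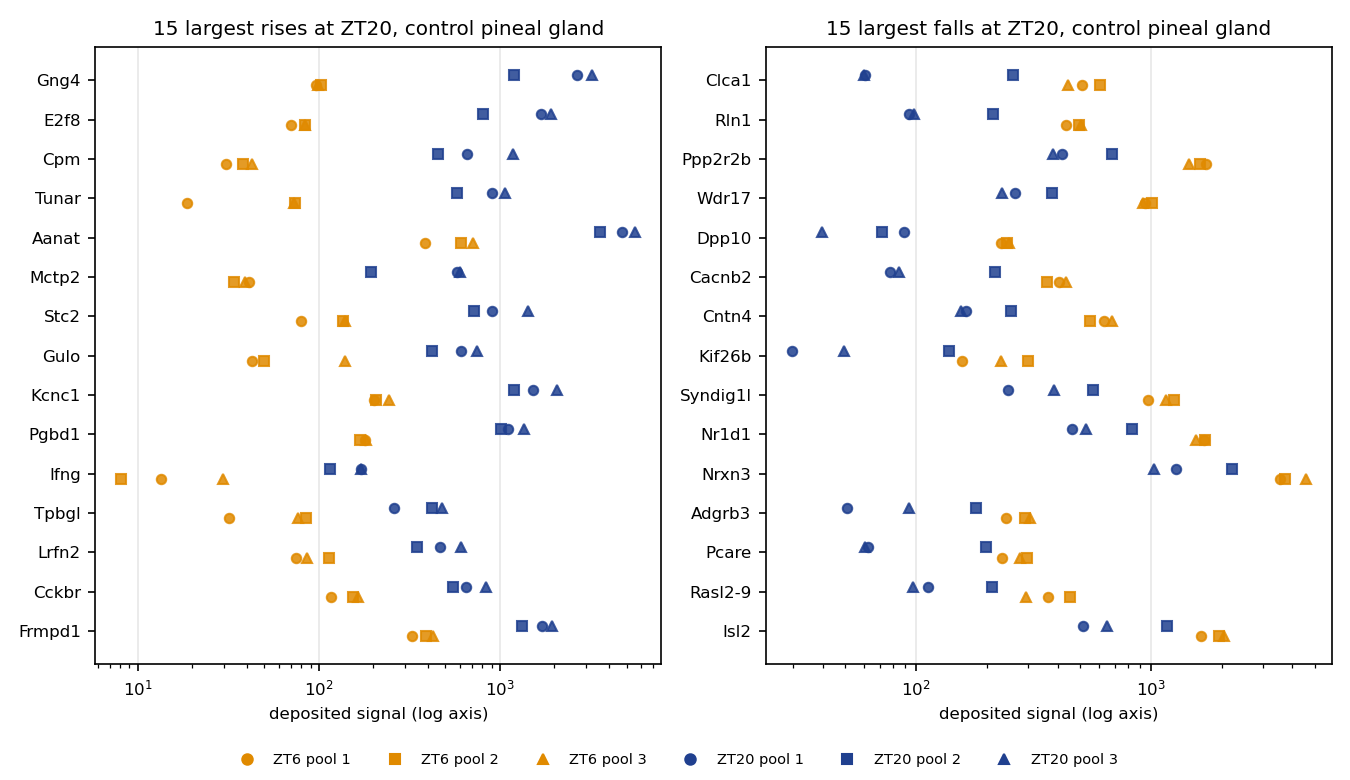
Deposited signal (log axis) of the 15 largest rises (left) and the 15 largest falls (right) at ZT20 in control pineal glands, with 1 mark per pool; orange marks are the 3 ZT6 pools and blue marks the 3 ZT20 pools. Night and day pools do not overlap in any row, a condition for being listed, and ZT20 pool 2 (blue square) is the night pool nearest to day in 14 of the rises and in 14 of the falls.

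Promoters of night-high genes are shown because the cAMP response element is the textbook site of CREB in this gland. The 250 bases before each RefSeq start of a gene (GRCm38.p6) were searched on both strands. Sought were the full site, TGACGTCA, and its first part, TGACG, which the full site contains. A gene counted as holding a site if any of its starts did. Of 30 genes fixed by name or among the largest rises that were higher at night, 25 had a promoter in the table used, 2 of these held the full site and 11 only the first part. The 6 sequences below are written 5′ to 3′ on the strand of the gene, ending at the base before its start, with capitals for the full site in Dio2 and Dusp1 and for TGACG, or its reverse complement, in the others; Dusp1 also holds a second TGACG left in lower case. Dio2, the deiodinase that activates thyroid hormone (chr12:90739039-90739288, minus strand), held the full site 95 bases before its start, and Dusp1, a phosphatase of MAP kinases (chr17:26508473-26508722, minus strand), 143 bases before. The first part alone was in Gng4 (chr13:13784057-13784306, plus strand), Tunar (chr12:105336743-105336992, plus strand, read there on the other strand), Mctp2 (chr7:72306596-72306845, minus strand) and Kcnc1 (chr7:46396218-46396467, plus strand). Gng4 and Tunar had 2 starts each, of which only the 1 shown held TGACG.
Dio2: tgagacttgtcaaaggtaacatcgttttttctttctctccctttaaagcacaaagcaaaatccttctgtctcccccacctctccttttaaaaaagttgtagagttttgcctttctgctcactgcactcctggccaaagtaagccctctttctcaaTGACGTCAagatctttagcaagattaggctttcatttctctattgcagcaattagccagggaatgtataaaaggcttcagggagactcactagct
Dusp1: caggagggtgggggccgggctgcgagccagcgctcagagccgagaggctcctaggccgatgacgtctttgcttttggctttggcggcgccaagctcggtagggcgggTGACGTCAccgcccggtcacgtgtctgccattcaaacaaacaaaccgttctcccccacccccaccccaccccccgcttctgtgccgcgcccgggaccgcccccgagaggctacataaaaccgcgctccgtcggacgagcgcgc
Gng4: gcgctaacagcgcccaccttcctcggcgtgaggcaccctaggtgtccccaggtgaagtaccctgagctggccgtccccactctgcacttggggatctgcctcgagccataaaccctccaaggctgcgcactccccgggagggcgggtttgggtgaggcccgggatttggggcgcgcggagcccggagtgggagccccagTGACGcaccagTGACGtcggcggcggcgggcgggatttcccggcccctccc
Tunar: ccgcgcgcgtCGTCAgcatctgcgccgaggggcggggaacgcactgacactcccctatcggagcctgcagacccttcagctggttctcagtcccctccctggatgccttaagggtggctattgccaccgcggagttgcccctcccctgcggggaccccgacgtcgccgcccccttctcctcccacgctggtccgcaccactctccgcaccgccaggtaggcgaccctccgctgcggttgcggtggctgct
Mctp2: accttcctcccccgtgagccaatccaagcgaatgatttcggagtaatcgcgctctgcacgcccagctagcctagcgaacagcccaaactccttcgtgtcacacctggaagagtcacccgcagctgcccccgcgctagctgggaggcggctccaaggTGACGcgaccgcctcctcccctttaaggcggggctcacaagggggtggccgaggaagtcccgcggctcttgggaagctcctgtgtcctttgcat
Kcnc1: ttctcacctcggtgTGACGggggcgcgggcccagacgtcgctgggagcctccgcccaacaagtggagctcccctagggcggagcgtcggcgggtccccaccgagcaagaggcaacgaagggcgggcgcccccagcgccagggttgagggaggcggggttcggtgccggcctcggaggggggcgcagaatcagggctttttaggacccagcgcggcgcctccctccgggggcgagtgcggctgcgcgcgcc
Over all tested genes with a promoter, 3.09% held TGACGTCA and 30.5% held TGACG. Among genes higher at night the shares were 4.80% (23 of 479) and 33.4%, and among genes lower at night 2.39 and 22.5%. Among the genes that rose by 1 log2 or more they were 4.67 and 25.2%, the second below that of all tested genes, and among those that fell by as much 3.51 and 14.0%. Aanat had no entry in the promoter table, and Isl2, which was lower at night, held the full site. The E-box CACGTG, bound by clock factors, was in 9.66% of all, 10.9% of higher and 10.2% of lower genes, and in 6.54% of the rises and 14.0% of the falls of 1 log2 or more. TAATCC, the core bound by CRX, was in 6.61% of all tested promoters, 6.68% of the higher and 12.3% of the lower, and in 13.1% of those that rose and 17.5% of those that fell by 1 log2 or more. The D-box TTATGTAA was in 0.526, 0.626 and 1.71% of all, higher and lower genes, and in 1.87 and 3.51% of those large rises and falls. These shares were not tested, and a match is a stretch of letters and not a bound site.

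The largest fall at night was in Clca1, a secreted regulator of chloride currents, which read 508, 607 and 442 by day and 60.5, 259 and 59.8 at night (-2.18 ± 0.26, adjusted p = 4.26e-11). Night pools 1 and 3 were lowest and pool 2 lay between them and day. Rln1, the hormone relaxin 1, read 434, 496 and 501 by day and 93.4, 212 and 98 at night (-1.80 ± 0.23, adjusted p = 7.29e-10). Ppp2r2b, a regulatory subunit of protein phosphatase 2A, read 1713, 1620 and 1456 by day and 417, 682 and 382 at night (-1.71 ± 0.20, adjusted p = 1.76e-11). Pool 2 was the night pool nearest to day in 14 of the 15 largest falls, Dpp10 being the exception. Genes of excitability and cell contact were among them: Dpp10, an auxiliary subunit of A-type potassium channels (-1.68), Cacnb2, a beta subunit of calcium channels (-1.68), the contactin Cntn4 (-1.65), the neurexin Nrxn3 (-1.45), the adhesion receptor Adgrb3 (-1.38) and Syndig1l (-1.53). Nrxn3 was the brightest, at 3546, 3722 and 4579 by day and 1274, 2209 and 1029 at night. The rest were Wdr17 (-1.69), the kinesin Kif26b (-1.63), the clock repressor Nr1d1 (-1.46), the photoreceptor cilium gene Pcare (-1.38), the small GTPase gene Rasl2-9 (-1.35) and the LIM homeobox factor Isl2 (-1.34). The groups of all 15 did not overlap, which was a condition for being listed. Without ZT20 pool 2 the falls of Clca1, Kif26b, Pcare and Adgrb3 were -2.80, -2.13, -1.87 and -1.78. With the mean over all its probe sets Nrxn3 was at -0.52 and did not pass (adjusted p = 0.0615).

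Of all tested genes 5.13% were higher and 3.13% lower at night. The lists here and below were chosen with earlier results of these data known. A list count set beside these shares is therefore a description and not a test. Among the enzymes of melatonin synthesis and their cofactors, Aanat alone was higher at night, and 1 of the other 10 tested genes was lower. This was Gch1, which makes the cofactor of tryptophan hydroxylase, at 6193, 6372 and 6144 by day and 4261, 5190 and 5226 at night (-0.36 ± 0.10, adjusted p = 0.0159). Its call ended without ZT6 pool 1 (adjusted p = 0.0657), ZT6 pool 2 (0.0574) or ZT20 pool 1 (0.162), and without the mean-variance trend (0.178). Tph1 was at 0.07 ± 0.06 (adjusted p = 0.53) and Ddc at 0.01 ± 0.07 (adjusted p = 0.951), both bright by day and at night. Ddc depended on the probe set: a dimmer one read 2624 by day and 1392 at night, and the mean of both was at -0.46 (adjusted p = 0.0199). Asmt, the last enzyme of the pathway, and Mat2a were not analysed here. The arrays measured RNA and not melatonin, so the rise of the Aanat transcript does not give the melatonin output of these glands.

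Of the homeobox and other factors of pinealocytes and photoreceptors, 1 of 16 tested was higher and 3 were lower, beside 5.13 and 3.13% of all tested genes. Crx read 7997, 8529 and 8345 by day and 10879, 10252 and 11559 at night, and rose by a small but steady amount (0.39 ± 0.07, adjusted p = 5.18e-06). Isl2 fell from 1638, 1955 and 2036 to 511, 1165 and 647, and the bHLH factor Neurod4 from 11705, 11815 and 11458 to 8721, 10040 and 8801 (-0.35 ± 0.07, adjusted p = 4.87e-05). In neither did the groups overlap. Otx2, which acts upstream of Crx, was at -0.22 ± 0.09 (adjusted p = 0.139). Neurod1 itself read 4647, 5268 and 5008 by day and 3156, 4323 and 3387 at night. Its night pools were all below its day pools, but it did not pass (-0.47 ± 0.39, adjusted p = 0.541), with an SE that holds the spread of the cKO pools. In a fit of the 6 control arrays alone it passed (-0.47 ± 0.11, adjusted p = 8.15e-04 by limma). Without the mean-variance trend the calls on Crx (adjusted p = 0.065) and Neurod4 (0.127) ended. The rod factor Nrl, the other gene that passed as lower, is given with the rod genes below.

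Receptors and G proteins upstream of cAMP followed. Adra1b, the alpha1B adrenergic receptor, read 49.5, 59.8 and 91.4 by day and 247, 185 and 215 at night (1.51 ± 0.25, adjusted p = 1.83e-06). Drd4, the dopamine D4 receptor, read 34.0, 32.1 and 54.5 by day and 98.7, 111 and 190 at night (1.38 ± 0.27, adjusted p = 9.33e-05). Both groups were apart, both genes were dim, and they were the 2 of 10 tested receptors that passed. Adrb1 and Adra1d were not analysed here. Of 28 G protein subunits and Rgs genes 3 rose and none fell. For this list and the receptors, the shares of all tested genes were 5.13% higher and 3.13% lower. The 3 were Gng4, the Gq family alpha subunit Gna14 (1.47) and the Gi family alpha subunit Gnaz (1.01), which went from 730, 989 and 1197 to 1944, 1618 and 2295. The other 25 included Rgs2, a brake on Gq signalling, at 0.20 ± 0.11 (adjusted p = 0.27). By unadjusted p under 0.05, 6 of the 28 were higher and 0 lower.

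Of 36 enzymes, subunits and anchors of the cAMP pathway, 8 were higher and 3 lower at night, where 5.13 and 3.13% of all tested genes were. Of the 8, 6 encode phosphodiesterases, which break down cAMP or cGMP. Pde10a read 205, 224 and 289 by day and 810, 605 and 727 at night (1.52 ± 0.20, adjusted p = 3.16e-09). Pde7b rose from 574, 530 and 655 to 1229, 1003 and 1855 (1.15) and Pde4d from 983, 1124 and 1565 to 2600, 2311 and 2850 (1.09). Pde4b rose from 1261, 1594 and 1386 to 2518, 2250 and 3582 (0.95 ± 0.17, adjusted p = 7.18e-06), and smaller rises of 0.45 and 0.43 were in Pde8a and Pde8b. The remaining rises were in the kinase subunit Prkar2b (0.44) and the anchor Akap13 (0.38). The falls were in the adenylyl cyclase Adcy1, from 328, 270 and 261 to 105, 159 and 98.6 (-1.17 ± 0.24, adjusted p = 2.46e-04), in the kinase inhibitor Pkia (-0.65) and in the anchor Akap7 (-0.56). In these 11 genes the night and day pools did not overlap, as in 603 of all 615 higher and 342 of all 375 lower genes. Without ZT6 pool 1 the higher count of the list was 5. The mean over all probe sets ended the call on Pde4b (0.30, adjusted p = 0.264).

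**Figure D2:**
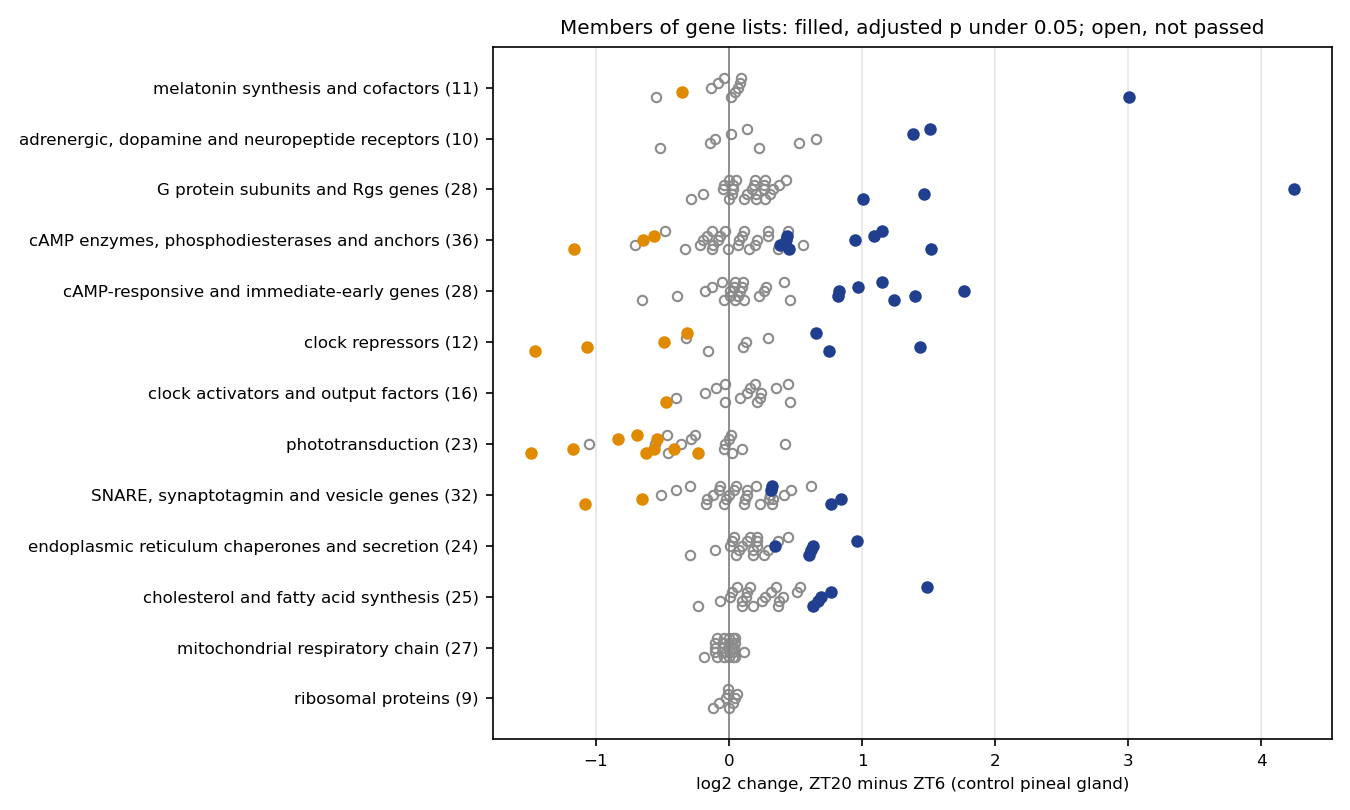
Log2 change (ZT20 minus ZT6, control pineal gland) of each tested member of 13 gene lists, with the number tested in brackets; filled marks passed at an adjusted p under 0.05 (blue higher, orange lower) and open marks did not. Tph1, Ddc and the mitochondrial and ribosomal genes lie near 0. Of the cAMP-responsive genes 7 of 28 are higher (5.13% of all tested genes), and 9 of 23 phototransduction genes are lower (3.13% of all).

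Transcription factors and phosphatases that answer to cAMP rose as a subset of their list: 7 of 28 tested genes were higher and 0 were lower, where 5.13 and 3.13% of all tested genes were. The orphan receptors of the Nr4a family all passed. Nr4a3 read 159, 213 and 210 by day and 809, 491 and 834 at night (1.76 ± 0.21, adjusted p = 5.05e-11), Nr4a1 rose by 1.40 ± 0.22 (adjusted p = 7.40e-07) and Nr4a2 by 0.82 ± 0.17 (adjusted p = 2.12e-04). Crem, whose ICER products repress cAMP-driven genes, read 820, 924 and 837 by day and 2134, 1700 and 2378 at night (1.24 ± 0.18, adjusted p = 5.96e-08). A bright second probe set of Crem rose from 708 to 1674 in the means, while 2 dim ones had lower means at night, and the mean over all ended the call (0.31, adjusted p = 0.284). Fosl2, which encodes the AP-1 factor Fra-2, rose from 1101, 1327 and 1351 to 2896, 2363 and 3219 (1.15 ± 0.17, adjusted p = 7.28e-08). Dusp1 rose from 972, 1336 and 1478 to 2508, 2014 and 2918 (0.97 ± 0.17, adjusted p = 1.33e-05), and the stress-induced factor Atf3 by 0.83. In these 7 genes the pools did not overlap, as in 603 of all 615 higher genes. Other immediate-early genes did not pass: Fos was at 0.26 ± 0.20, Egr1 at 0.01 ± 0.14, Jun at 0.04 ± 0.16 and Junb at 0.10 ± 0.26. Sik1, a kinase that limits CREB activity, was at 0.07 ± 0.25 (adjusted p = 0.917). Its signal was above the array median in 1 of the 6 pools, and that of Junb in none.

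Clock genes moved in both directions. Of 12 clock repressors tested 3 were higher and 4 lower at night, beside 5.13 and 3.13% of all tested genes. Cry1 read 739, 848 and 836 by day and 2029, 2023 and 2605 at night (1.43 ± 0.18, adjusted p = 3.08e-10). Per1 rose from 362, 349 and 446 to 592, 569 and 834 (0.75 ± 0.20, adjusted p = 0.00702) and Per2 from 427, 441 and 525 to 726, 642 and 856 (0.65 ± 0.20, adjusted p = 0.0191). Nr1d1, the REV-ERB alpha receptor that represses Arntl, fell from 1682, 1704 and 1550 to 459, 831 and 530 (-1.46 ± 0.19, adjusted p = 2.90e-09). Ciart, which binds and inhibits the CLOCK and BMAL1 pair, fell from 182, 136 and 176 to 61.0, 87.5 and 62.3 (-1.07 ± 0.26, adjusted p = 0.00224). Per3 (-0.49 ± 0.17, adjusted p = 0.0498) and Nr1d2 (-0.32 ± 0.10, adjusted p = 0.0307) fell by less, and Cry2 was at 0.13 ± 0.16 (adjusted p = 0.725). In the 7 that passed the groups did not overlap, as in 603 of all 615 higher and 342 of all 375 lower genes. Of 16 clock activators and output factors, Dbp, a D-box activator driven by CLOCK and BMAL1, fell from 2972, 2687 and 2809 to 1595, 2305 and 2259 (-0.47 ± 0.16, adjusted p = 0.045). The activators themselves did not pass: Arntl, which encodes BMAL1, was at -0.03 ± 0.17 (adjusted p = 0.943), Clock at -0.03 ± 0.15 (adjusted p = 0.936) and Npas2 at 0.24 ± 0.21 (adjusted p = 0.569). The output factor Tef was at -0.18 ± 0.13 (adjusted p = 0.458). Tef depended on the probe set and the scaling. A dimmer probe set, above the median in all 6 pools, had means of 1709 by day and 927 at night. On quantile-normalised values Tef passed by limma (-0.22, adjusted p = 0.0172).

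Some of the clock calls rested on single pools. Without ZT6 pool 1 the 12 repressors gave 1 higher and 2 lower, and without ZT6 pool 3 the lower count was 2. The call on Nr1d2 ended without any 1 of the 6 pools (0.0583 to 0.107 as adjusted p). That on Per3 ended without any pool but ZT20 pool 2 (0.0792 to 0.214), and on Dbp without ZT6 pool 1, 2 or 3 or ZT20 pool 1 (0.0751 to 0.326, the last with a change of -0.30). The call on Per1 ended without ZT6 pool 1 (0.051) or ZT20 pool 3 (0.137), and on Per2 without these (0.0941 and 0.166) or ZT6 pool 2 (0.0835). With no variance trend Per3 (0.0828), Nr1d2 (0.178) and Dbp (0.121) did not pass. For Per3, 3 dimmer probe sets above the median in 4 or more pools had larger differences of means, from -0.90 to -0.95 on the log2 scale.

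**Figure D3:**
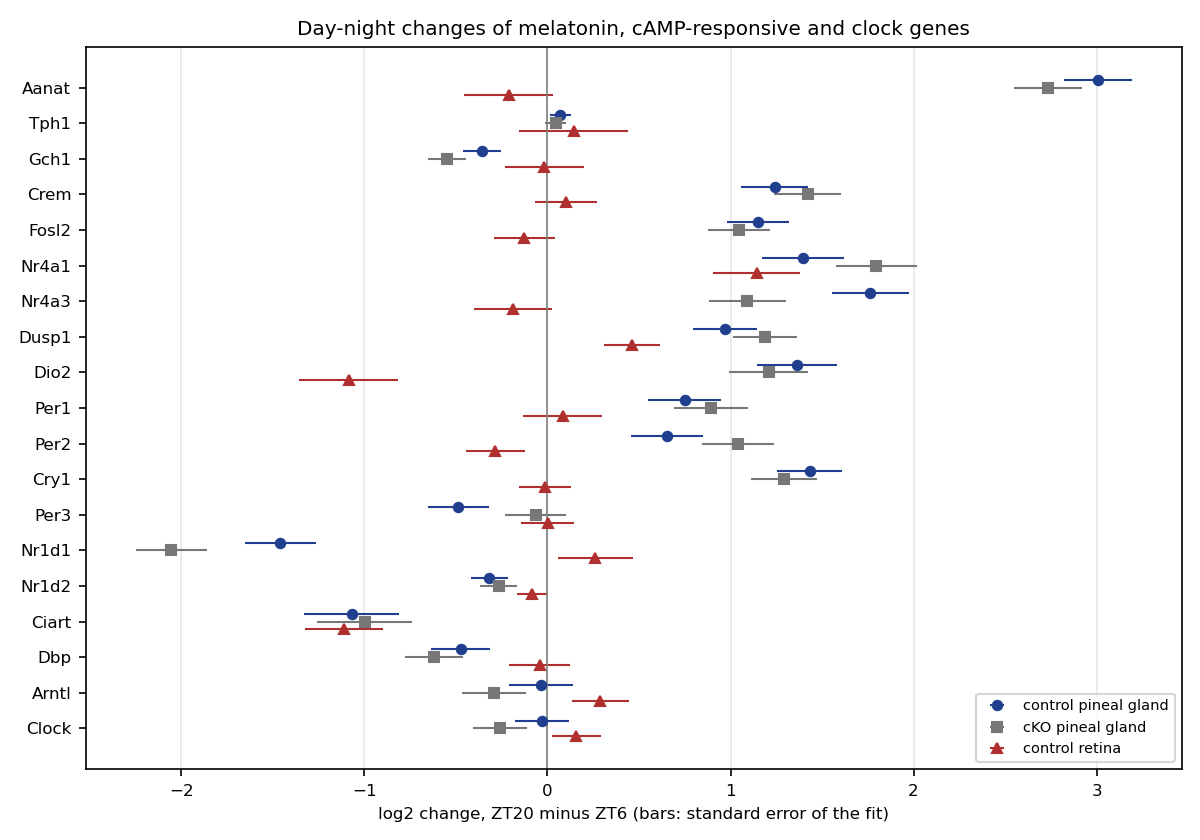
Log2 change (ZT20 minus ZT6) of 19 melatonin, cAMP-responsive and clock genes in the control pineal gland (blue circles), the cKO pineal gland (grey squares) and the control retina (red triangles); bars are the SE of the fit. Control and cKO glands lie side by side for most genes, Aanat near 3 in both. In the retina most genes are near 0, with Nr4a1, Ciart and Dio2 among the exceptions. Dio2 lies above 0 in the gland and below 0 in the retina.

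Phototransduction genes that passed were all lower at night, 9 of 23 tested beside 3.13% of all tested genes, with a median of -0.41 over the list beside 0.02 for all genes. Without ZT6 pool 3, 6 were lower and the median of the list was -0.22. By unadjusted p 12 were lower and 0 higher. Those with no overlap between the groups included Gngt1, a gamma subunit of rod transducin that pinealocytes also express, from 3012, 3525 and 5049 to 2157, 2513 and 2321 (-0.69 ± 0.16, adjusted p = 7.92e-04), the lipid-binding Unc119 (-0.62), the rod phosphodiesterase subunit Pde6b, from 4242, 3970 and 4223 to 2535, 2815 and 3080 (-0.56), and the guanylate cyclase activator Guca1a (-0.54). Gnat2, the cone transducin alpha subunit, fell by 0.41, and Sag, the arrestin abundant in rods and pinealocytes, from 9952, 10921 and 10294 to 8228, 9170 and 9160 (-0.23 ± 0.07, adjusted p = 0.0152). Opn1sw, the short-wavelength cone opsin, read 657, 913 and 1152 by day and 173, 665 and 243 at night. Its night pool 2 lay within the day range, so that the groups overlapped (-1.49 ± 0.23, adjusted p = 1.81e-07), and without that pool the change was -2.03.

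Rod genes varied between pools of one group. Gnat1, the rod transducin alpha subunit, read 72.6, 1266 and 3830 by day and 958, 732 and 172 at night and did not pass (-0.56 ± 0.49, adjusted p = 0.574). Nrl, the factor that defines rods, read 120, 373 and 1081 by day and 184, 162 and 43.6 at night (-1.59 ± 0.33, adjusted p = 2.31e-04). The phosphoprotein Pdc read 1722, 3116 and 4819 by day and 2073, 1735 and 610 at night (-1.17 ± 0.23, adjusted p = 5.88e-05), and Guca1b read 245, 501 and 1103 by day and 293, 335 and 227 at night (-0.84 ± 0.26, adjusted p = 0.0247). All 3 overlapped between the groups, with ZT6 pool 3 the highest and ZT20 pool 3 the lowest. In Gnat1 ZT6 pool 3 was also the highest, but ZT6 pool 1 was the lowest. Without ZT6 pool 3 the calls on Nrl (-0.84, adjusted p = 0.112), Guca1b (-0.30, 0.626) and Prph2 (-0.65, 0.0714) ended, as did that on Gngt1 (-0.48, 0.085), and that on Guca1b ended also without ZT20 pool 3 (0.0703). Without ZT20 pool 3 Nrl was at -1.04 and Pdc at -0.64, and without ZT6 pool 1 Guca1b was at -1.35. On quantile-normalised values the calls on Nrl (0.0809), Pdc (0.0505) and Guca1b (0.141) ended. Prph2, an outer segment protein, read 531, 671 and 791 by day and 351, 421 and 352 at night (-0.79 ± 0.20, adjusted p = 0.00337), with no overlap. Of the whole rod list 4 of 6 tested members were lower, beside 3.13% of all tested genes. The summed signal of the list ran from 12590 to 18959 by day and from 11537 to 12640 at night, with Pde6a below the median in all pools. Without ZT6 pool 3, 1 of the 6 was lower. The part of retinal or other RNA in the fall of rod genes was not tested. The call on Sag ended without ZT6 pool 2 (0.122), ZT6 pool 3 (0.0515) or ZT20 pool 1 (0.146), and with no variance trend (0.297).

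Genes of secretion and synapses split. The list of dense-core granule and prohormone genes gave 3 higher of 17 tested and 0 lower, beside 5.13 and 3.13% of all tested genes. The 3 were the membrane carboxypeptidase Cpm, the secreted Stc2 and Cadps2, which readies granules for release (0.67 ± 0.20, adjusted p = 0.0169). Cpm and Stc2 were already named above among the 15 largest rises. Of 32 vesicle genes 4 were higher and 2 lower, where 5.13 and 3.13% of all tested genes were. Syt4, a synaptotagmin of secretory vesicles, rose from 3085, 3966 and 3986 to 7025, 5683 and 7090 (0.84 ± 0.11, adjusted p = 6.88e-10). Syn2, which tethers synaptic vesicles, rose from 2878, 3491 and 3660 to 5926, 4742 and 6429 (0.76 ± 0.12, adjusted p = 2.96e-07), and both the glutamate transporter Slc17a6 and the complexin Cplx4 rose by 0.32. Sv2b, a vesicle glycoprotein, fell from 4126, 4223 and 3847 to 1504, 2503 and 1851 (-1.08 ± 0.15, adjusted p = 9.56e-09). Slc17a7, the other vesicular glutamate transporter of the list, fell from 1201, 1549 and 1270 to 683, 928 and 930 (-0.66 ± 0.19, adjusted p = 0.0129). Of 21 potassium channel genes tested Kcnc1 alone was higher and 0 lower, and of 27 calcium, sodium, HCN and TRP channel genes Cacnb2 alone was lower and 0 higher (by unadjusted p 4 higher and 1 lower, and 2 higher and 2 lower). Both counts were near the shares of all tested genes, 5.13% higher and 3.13% lower. The call on Cadps2 ended without ZT6 pool 1 (0.183) or ZT20 pool 3 (0.39, adjusted p = 0.386) and with no variance trend (0.101), and without ZT6 pool 1 the vesicle list gave 2 higher. The call on Slc17a7 ended without ZT6 pool 2 (0.122) or ZT20 pool 1 (0.113).

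Of 25 genes of cholesterol and fatty acid synthesis 5 were higher and 0 lower, beside 5.13 and 3.13% of all tested genes. The median over the list was 0.27. Mvk, the mevalonate kinase, read 400, 477 and 411 by day and 1188, 983 and 1590 at night (1.49 ± 0.19, adjusted p = 1.56e-09). Idi1, which makes the isoprenoid building block dimethylallyl diphosphate, rose from 1330, 1661 and 1428 to 2208, 2212 and 3223 (0.77 ± 0.17, adjusted p = 8.67e-04). The others were Mvd (0.69), Srebf2, the master regulator of the pathway (0.67), and Msmo1 (0.63), all with pools apart. By unadjusted p 11 of the 25 were higher and 0 lower. Dio2, whose promoter is shown above, read 654, 771 and 665 by day and 1461, 1665 and 2436 at night (1.36 ± 0.22, adjusted p = 8.74e-07). With the retinal reductase Dhrs3 (0.53) it made 2 higher of 21 thyroid hormone and retinoid genes, and the retinoid receptor Rxrg was lower (-0.67). The call on Mvd ended without ZT6 pool 1 (0.235) or ZT20 pool 3 (0.144), on Dhrs3 without ZT6 pool 1 (0.192), ZT20 pool 2 (0.0645) or ZT20 pool 3 (0.0601), and on Rxrg without ZT20 pool 1 (0.131). With no variance trend calls ended on Mvd (0.0787), Dhrs3 (0.0567) and Rxrg (0.0798), and with the mean of all probe sets on Mvd and Srebf2 (both 0.0639).

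Chaperones of the endoplasmic reticulum gave 5 higher and 0 lower of 24 (5.13 and 3.13% of all tested genes), namely Sdf2l1 (0.96 ± 0.21, adjusted p = 4.21e-04), the disulphide isomerase Pdia6 (0.63), Xbp1, the factor that drives such genes (0.62), Creld2 (0.60) and Hspa5, which encodes BiP (0.34). Xbp1 read 1630, 1995 and 1945 by day and 2487, 2820 and 3296 at night. In the heat shock list 2 of 16 were higher: Hspa1a, at a mean of 124 by day and 229.8 at night with pools apart (0.82 ± 0.23, adjusted p = 0.0113), and Hspb1 (0.76), whose pools overlapped. Of 18 glucocorticoid-responsive genes Cdkn1a alone was higher, from 394, 500 and 438 to 682, 812 and 874 (0.81 ± 0.19, adjusted p = 0.00186), and 0 were lower, a count near the 5.13% of all tested genes that were higher. It is also a cell cycle inhibitor, and in the cell cycle list E2f8, Cdkn1a, E2f1 (0.78) and E2f3 (0.62) were higher and Cdk6 (-0.97) and E2f6 (-0.56) lower of 33. In glucose handling hexokinase Hk2 rose from 1992, 2397 and 2265 to 3539, 3287 and 4122 (0.71 ± 0.14, adjusted p = 1.02e-04), and the glucose transporter Slc2a3 (-0.80) and the glycogen-targeting Ppp1r3c (-0.63) fell, of 26 tested. Housekeeping lists stayed near 0: 0 of 27 respiratory chain genes and 0 of 9 ribosomal protein genes passed by limma, 1 and 0 at an unadjusted p under 0.05. Cox7a2 was at -0.01 ± 0.06, Cox6a1 at -0.02 ± 0.06, Rpl19 at 0.00 ± 0.06 and Rpl4 at 0.03 ± 0.06.

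The chaperone count of 5 was 1 without ZT6 pool 1 and 3 without ZT6 pool 3, and on quantile-normalised values 10 were higher and 1 lower. Without ZT6 pool 1 the calls on Pdia6 (adjusted p = 0.0808), Xbp1 (0.0583), Creld2 (0.17), Hspa1a (0.107), Hspb1 (0.11) and E2f1 (0.0539) ended. Without ZT6 pool 3 those on Pdia6 (0.0524), Creld2 (0.0639) and Slc2a3 (-0.41, 0.435) ended, and without ZT20 pool 1 that on Slc2a3 (0.0577). Creld2 did not pass without ZT20 pool 2 (0.0538) or pool 3 (0.127), and neither Xbp1 (0.0707) nor E2f1 (0.0805) passed without ZT20 pool 3. Hspb1 (0.0782), Slc2a3 (0.133) and Ppp1r3c (0.0722) did not pass with no variance trend.

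Of the neutrophil and marrow list 4 of 7 tested genes were lower at night, and of the red cell list 3 of 3, beside 3.13% of all tested genes. On quantile-normalised or median-centred values 2 of each list were lower. S100a8, a calcium-binding protein of neutrophils, read 3277, 1855 and 3671 by day and 376, 2002 and 1476 at night (-1.42 ± 0.25, adjusted p = 9.25e-06), and S100a9, its partner, 7022, 3438 and 6019 by day and 1085, 3203 and 3517 at night (-1.18 ± 0.20). With Chil3 (-0.99 ± 0.28, adjusted p = 0.0123) and Camp (-0.99 ± 0.26, adjusted p = 0.00586) they overlapped between the groups, and ZT20 pool 1 was the lowest in all 4. The haem enzyme Alas2 read 1032, 1026 and 711 by day and 306, 655 and 434 at night (-1.01), the red cell anion exchanger Slc4a1 was at -1.01 and the globin Hbb-b2 at -0.33. Of 5 lymphocyte genes 3 were lower, the B cell genes Ms4a1, at 314, 309 and 321 by day and 85.5, 146 and 206 at night (-1.10 ± 0.24, adjusted p = 4.09e-04), and Cd79b (-0.76), and the T cell gene Cd8a (-0.69). Summed signals were 6653 to 12983 by day and 1984 to 7522 at night for neutrophil genes, 8855 to 10757 and 6365 to 9523 for red cell genes, and 1513 to 1689 and 886 to 1270 for lymphocyte genes. Mpo, Elane and Prtn3, Hba-a1 and Epb42, and Cd79a, Igll1, Cd3e and Cd2 lay below the array median in all 6 pools. The part of blood or marrow left in the pools was not tested.

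These calls were fragile. Without ZT20 pool 1 the changes of S100a8 and S100a9 were -0.71 and -0.65, and the calls on Chil3 (-0.34, adjusted p = 0.495), Camp (-0.42, 0.338), Cd79b (0.247), Cd8a (0.257) and Hbb-b2 (0.174) ended, and without ZT6 pool 3 those on Chil3 (0.179), Camp (0.127), Cd79b (0.0981) and Cd8a (0.0803). Without ZT6 pool 1 Chil3 (0.228), Camp (0.107), Cd79b (0.0559), Cd8a (0.183) and Hbb-b2 (0.226) did not pass. Cd8a did not pass without ZT6 pool 2 (0.12) or ZT20 pool 2 (0.0678), nor Hbb-b2 without ZT20 pool 3 (0.0552). Without ZT20 pool 2 the changes of Chil3 and Camp were -1.54 and -1.48, and 7 of the 7 neutrophil genes were lower, against 2 without ZT6 pool 1 or ZT6 pool 3. Of the lymphocyte genes 1 was lower without either of these day pools. Quantile normalisation ended the calls on Chil3 (0.137), Camp (0.0791) and Hbb-b2 (0.101), and with no variance trend S100a8 (0.119), S100a9 (0.104), Chil3 (0.303), Camp (0.213), Cd79b (0.0627) and Hbb-b2 (0.332) did not pass.

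**Figure D4:**
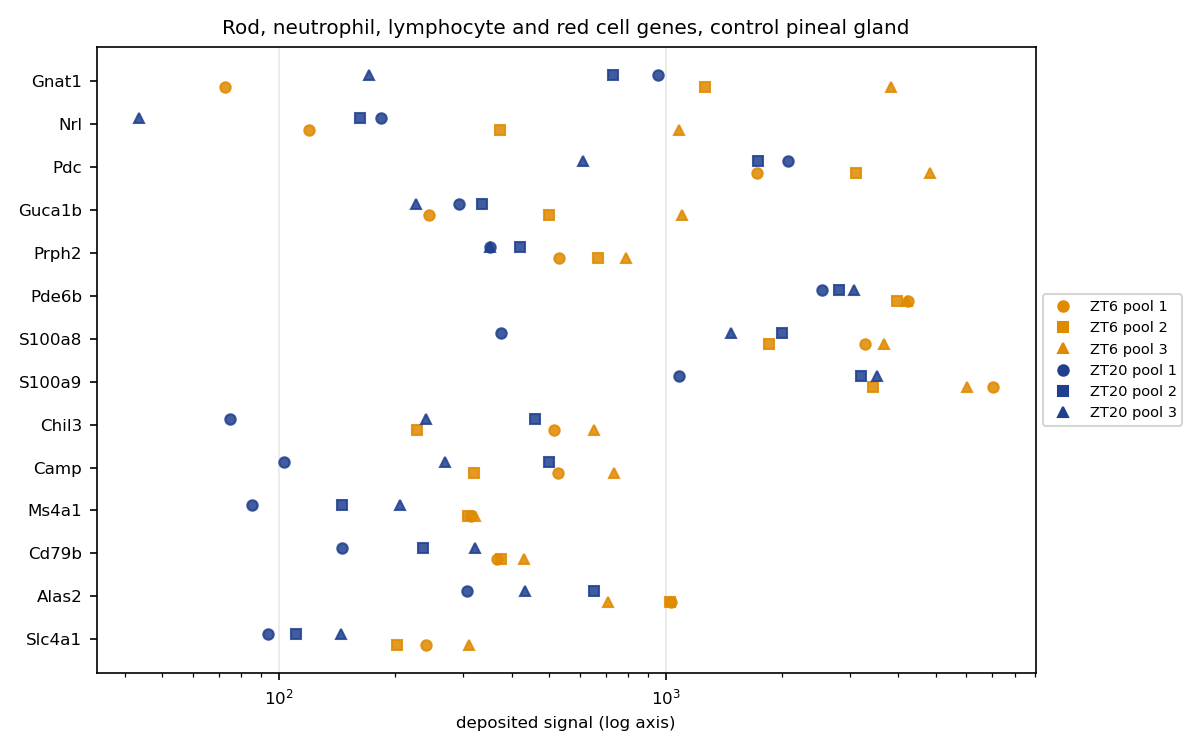
Deposited signal (log axis) of 14 rod, neutrophil, lymphocyte and red cell genes in control pineal glands, with 1 mark per pool; orange marks are ZT6 pools and blue marks ZT20 pools. Gnat1, Nrl and Pdc are highest in ZT6 pool 3, neutrophil genes are lowest in ZT20 pool 1, and Prph2, Pde6b, Ms4a1, Cd79b, Alas2 and Slc4a1 do not overlap between the groups.

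Of the endothelial and mural list 2 of 15 were higher at night, the clotting factor Vwf, from 2902, 3215 and 2951 to 3675, 4326 and 4893 (0.50 ± 0.14, adjusted p = 0.00911), and the smooth muscle actin Acta2 (0.43). Of all tested genes 5.13% were higher and 3.13% lower. The median of the endothelial and mural list was 0.37, and 7 of its genes were higher by unadjusted p. On quantile-normalised values 6 were higher and after median centring 5, with 0 lower in both. The count was 4 without ZT20 pool 1, 1 without ZT6 pool 3 or ZT20 pool 2, and 0 without ZT6 pool 1 or ZT20 pool 3. In the choroid plexus list Kl, which encodes Klotho, was higher (0.59, with overlapping pools) of 11 tested, and in the meningeal fibroblast list the sulphate transporter Slc13a4 (0.54) of 15. By unadjusted p 6 of the choroid plexus genes were higher and 1 lower, and 3 of the fibroblast genes were higher and 0 lower. On quantile-normalised values the choroid plexus list had a median of 0.28, with 0 higher and 1 lower past the threshold. Neuronal genes of the habenula and nearby brain were lower in 2 of 5, Nrgn (-0.86) and Slc17a7, and 7 of the 12 on the array were below the median in all pools. In 6 lists 0 genes passed by limma: microglia and macrophages (0 of 16, 4 by unadjusted p), astrocytes (0 of 10, 1), oligodendrocytes and Schwann cells (0 of 3, 0), mast cells (0 of 5, 0), bone (0 of 7, 4) and retinal neurons and lens (0 of 8, 3). Their brightest members were C1qb (0.29 ± 0.11, adjusted p = 0.0682) and Lyz2 (-0.12), Gja1 (0.20) and Slc1a2 (0.21), Pmp22 (0.22) and Cnp (0.22), Cma1 (0.19) and Mcpt4 (0.02), Alpl (0.40) and Mmp13 (-0.82 ± 0.28, adjusted p = 0.0562), and Cryab (0.07) and Slc6a9 (-0.08). Mmp13, a collagenase, passed without ZT20 pool 2 (-1.33, adjusted p = 1.36e-06), ZT6 pool 2 (-1.10, 2.49e-04) or ZT20 pool 3 (-1.09, 4.44e-04), and in the fit of the 6 control arrays (4.65e-04). The bone list gave 3 lower of 7 without ZT20 pool 2 or ZT6 pool 2, 4 without ZT20 pool 3 and 2 without ZT6 pool 3. C1qb passed without ZT20 pool 1 (0.41, adjusted p = 0.0102). The 0 counts of these lists also depended on scaling. On quantile-normalised values 2 microglial, 1 astrocyte, 1 oligodendrocyte and 1 bone gene were higher by limma, and 1 retinal gene was lower. C1qb (adjusted p = 0.0344), Gja1 (0.0095) and Pmp22 (0.0429) were among them. No skeletal muscle gene was bright enough to be tested.

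Calls on vessels, meninges, choroid plexus and brain neurons also turned on single pools. Without ZT6 pool 1 those on Vwf (0.0738), Acta2 (0.28, adjusted p = 0.393), Kl (0.35, 0.425) and Slc13a4 (0.116) ended, and without ZT20 pool 3 those on Vwf (0.112) and Acta2 (0.142). Acta2 did not pass without ZT6 pool 3 (0.0819) or ZT20 pool 2 (0.101), and Kl not without ZT20 pool 1 (0.0791) or pool 2 (0.37 on the log2 scale, adjusted p = 0.168), while without ZT20 pool 3 it was at 0.94. Nrgn did not pass without ZT6 pool 3 (-0.51, 0.398) or ZT20 pool 1 (0.149). On quantile-normalised values Kl was at 0.55 (0.193), and with no variance trend Vwf (0.125), Acta2 (0.226), Kl (0.309), Slc13a4 (0.0804) and Nrgn (0.172) did not pass.

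The day-night change was also set against that of the cKO gland, which shares no array with it. Across the 11984 genes tested both changes correlated at r = 0.75 (across genes, which are not independent replicates). In the cKO gland 1339 genes passed (11.2%), 339 higher and 1000 lower, with a median over all genes of -0.15 there. Of the 139 genes that rose by 1 log2 or more in controls 126 were also higher in the cKO gland (2.83% of all tested genes were), and of the 75 that fell by as much 61 were lower (8.34% of all). Their median changes were 1.32 and 1.17 for the rises in control and cKO glands and -1.13 and -1.08 for the falls. Aanat was at 642 ± 165 (SD, n = 3 pools) by day and 4326 ± 766 at night in the cKO gland, a change of 2.74 ± 0.19, and Gng4, E2f8 and Cry1 changed there by 3.90, 4.24 and 1.29. For Aanat the difference of the changes, cKO minus control, was -0.27 ± 0.26 and for Gng4 -0.35 ± 0.31 (adjusted p = 0.806 and 0.804).

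The difference between the genotypes passed for 29 of 11984 genes (0.242%), of which 22 also passed in the control gland, and in all 22 the difference, cKO minus control, was opposite in sign to the control change. The difference holds the control arrays that also gave that change. Spry1, an inhibitor of receptor tyrosine kinases, read 52.3, 59.4 and 64.2 by day and 125, 198 and 132 at night in controls (1.15 ± 0.27) and was at -0.54 in the cKO gland, a difference of -1.68 ± 0.38 (adjusted p = 0.0191). Sema3g (-1.42), Moxd1 (-1.34), the mural cell receptor Notch3 (-1.33) and the channel subunit Abcc9 (-1.29) followed, and all 4 were higher at night in controls with pools apart. On the other side were S100a8 (2.16 ± 0.36, adjusted p = 9.20e-05), Slfn4 (2.13), S100a9 (1.72), the platelet chemokine Ppbp (1.69) and Chil3 (1.66), which were lower at night in controls and at 0.36 to 1.01 in the cKO gland. By limma 0 genes passed on quantile-normalised values, with trimmed-mean scaling, with no variance trend or with no filter on dim genes (1156, 1018, 657 and 970 at an unadjusted p under 0.05), and 2 passed after median centring. With the pool number as a block 51 passed, of which 26 were among the 29 (9 above 0 and 42 below, in place of 12 and 17). The count was 2 without ZT6 pool 1 of the controls or ZT20 pool 3 of the cKO, and 14 without ZT20 pool 1 of the cKO. It was 74, 70 and 100 without ZT6 pool 2, ZT20 pool 1 and ZT20 pool 3 of the controls, and 76 and 84 without ZT6 pool 3 and ZT20 pool 2 of the cKO. In the control comparison the calls on Abcc9 (adjusted p = 0.056), Sema3g (0.0786) and Moxd1 (0.147) ended without ZT6 pool 1, that on Moxd1 without ZT20 pool 2 (0.106) and that on Slfn4 without ZT6 pool 3 (0.0907).

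**Figure D5:**
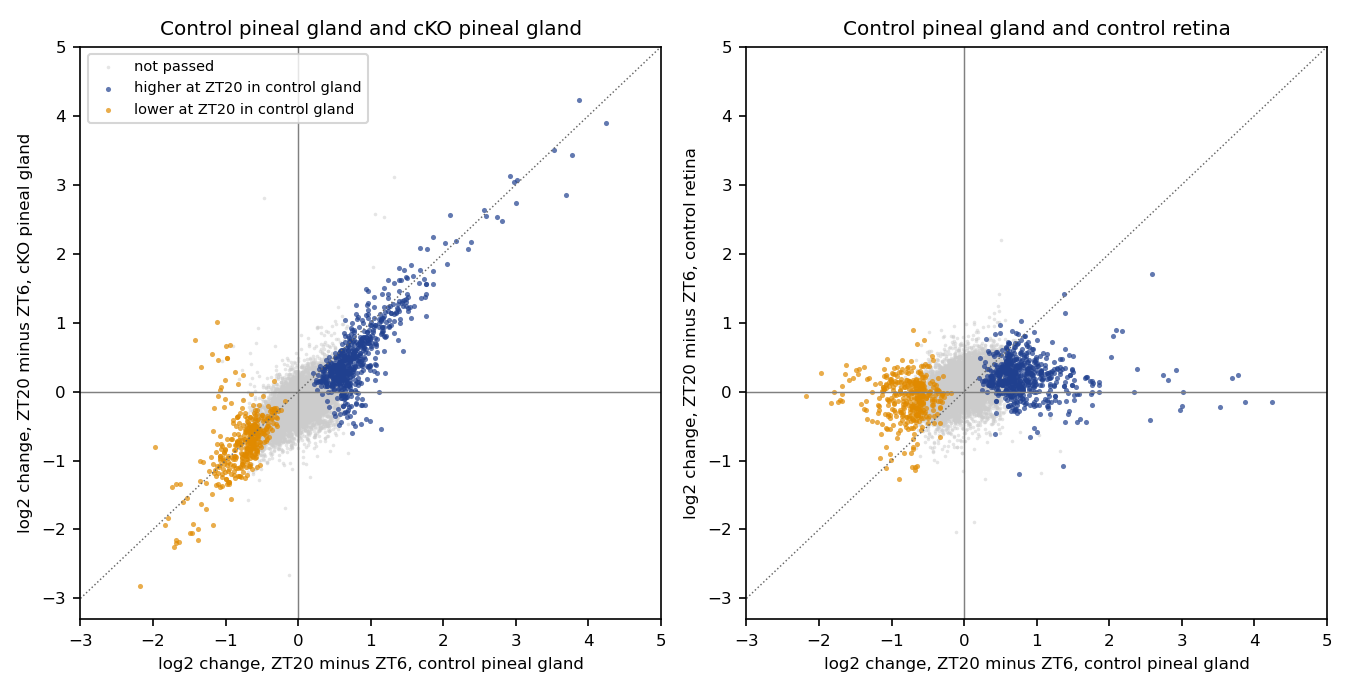
Log2 change (ZT20 minus ZT6) in the control pineal gland (horizontal axis) against that in the cKO pineal gland (left) and the control retina (right); each point is a gene tested in the control gland, blue and orange where it passed as higher or lower there, and the dotted line marks equal change. Points follow the line on the left (r = 0.75) and spread along the horizontal axis on the right, where the median change of the 139 large rises is 0.19.

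The day-night change of the gland was last set against that of the retina of control mice. In the control retina 54 of 12928 genes passed (0.418%), 43 higher and 11 lower. Of the 139 large pineal rises 4 were also higher there (0.333% of all tested genes were): Pgbd1 (1.71), Drd4 (1.42), Nr4a1 (1.14) and Zdhhc5 (0.75). Of the 75 large falls 2 were lower (0.0851% of all), Ciart (-1.11) and Ccl9 (-0.99). Zdhhc5 and Ccl9 are named here because their values were seen. The median retinal change was 0.19 for the 139 rises and -0.05 for the 75 falls. The difference between the tissues passed for 139 of 12928 genes (1.08%), 85 above 0 (0.657%) and 54 below 0 (0.418%). Of these 127 had passed in the gland, 83 higher and 44 lower. That difference shares the control pineal arrays with the changes that chose the large rises and falls, and it passed for 66 of the 139 large rises and 24 of the 75 large falls. The largest were Gng4 (4.40 ± 0.38, adjusted p = 3.36e-08), E2f8 (4.02 ± 0.39, adjusted p = 2.21e-07), Cpm (3.54), Tunar (3.49) and Mctp2 (3.24), and on the other side Clca1 (-2.12), Kif26b (-2.01), Cntn4 (-1.91), Opn1sw (-1.80) and Rln1 (-1.79).

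Levels in the retina differed from gene to gene. Gng4 was at 1414 ± 217 by day and 1269 ± 197 at night in the retina (SD, n = 3 pools), between the day and night levels of the gland. Kcnc1, at 2301 ± 419 and 2741 ± 568, and Tunar, at 1959 ± 350 and 2238 ± 257, were at or above the night level of the gland at both times. Aanat was at 47.0 ± 8.45 and 39.1 ± 12.2 and E2f8 at 8.90 ± 5.66 and 6.03 ± 1.83 in the retina, below the array medians. Dio2 had a retinal level of 1849 ± 151 by day and 861 ± 38.8 at night (-1.09 ± 0.27, adjusted p = 0.0677) where it rose in the gland, and the difference between the tissues was 2.45 ± 0.38 (adjusted p = 3.35e-04). The count of genes that differed between the tissues was 84 without ZT20 pool 1 and 77 without ZT20 pool 3 of the gland, and 553 on quantile-normalised values.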

How the data were processed

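RNA of 24 pools of pineal glands or retinas was measured on 1-colour Affymetrix Mouse 430 2.0 arrays after amplification with NuGEN Ovation V2, per the labels' protocols. The authors deposited 1 signal intensity per probe set and array, on a linear scale, made with GCOS per the submitters' processing notes. The scaling of the arrays is not stated in the labels or notes used. Of 45101 probe sets 34945 had 1 gene symbol in GEO's platform annotation, 932 had several and 9211 none, beside control probe sets; the brightest probe set of each of 18193 genes was kept.

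From these values log2(signal + 16) was computed, which understates the change of dim genes, with no further scaling. Genes above the array median on at least 3 of the 12 pineal arrays were tested (11984). limma 3.58.1 in R 4.3.3 (lmFit, eBayes with a mean-variance trend) was fitted to 4 pineal groups of 3 arrays, and to 8 groups for comparison with the retina, with Benjamini-Hochberg adjustment and a threshold of 0.05. The fit was tested on simulated data with independent noise for each gene. Shifts of a whole pool and differences in scaling were not simulated, so that test cannot speak to them. An exact permutation test of 3 pools against 3 cannot give a two-sided p below 0.1, and the number of arrays limits the precision. Pool numbers did not pair day with night pools (the check is given with the alternatives), so no block was used.

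The genes and lists were chosen with earlier results of these data known. Named were the 15 largest rises and falls with pools apart (passing over clones, predicted genes, immunoglobulin segments, sex markers and probe sets that end in _x_at), up to 4 members of each list that passed or else up to 2 bright ones, genes fixed by name, and the 5 largest differences each way by genotype and tissue among genes that passed in the gland; further list members that passed are named because their values were seen. Alternatives were another scaling, pseudocount, filter, probe set rule, variance model, set of arrays or block, and leaving out each pool. Promoter sequences are RefSeq's (GRCm38.p6), with entries for 14367 genes.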

Additional observations from a re-analysis of the deposited data

Results flagged for a closer look

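The day-night change (ZT20 minus ZT6) differed between control and cKO pineal glands in 29 genes at an adjusted p under 0.05 by limma's test of the difference. Among the genes named here the difference, cKO minus control on the log2 scale, was above 0 in Neurod1 (3.27), S100a8 (2.16), Slfn4 (2.13), S100a9 (1.72), Ppbp (1.69), Chil3 (1.66), Camp (1.47) and Alas2 (1.18). It was below 0 in Spry1 (-1.68), Sema3g (-1.42), Moxd1 (-1.34), Notch3 (-1.33), Abcc9 (-1.29), Kl (-1.02) and Vwf (-0.81). Neurod1 is the targeted gene, and its value holds the signal seen in night libraries labelled cKO, which varied widely between pools.

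The change differed between control pineal gland and control retina in 139 genes by the same test. The gland minus the retina was above 0 for Gng4 (4.40), E2f8 (4.02), Cpm (3.54), Tunar (3.49), Mctp2 (3.24), Aanat (3.22), Gulo (2.65), Stc2 (2.60), Kcnc1 (2.50), Dio2 (2.45), Tpbgl (2.35), Ifng (2.06) and Nr4a3 (1.95). It was also above 0 for Pde10a (1.57), Cry1 (1.45), Mvk (1.40), Pde7b (1.39), Fosl2 (1.28), Crem (1.14), Per2 (0.94), Pde4b (0.88), Syn2 (0.80) and Syt4 (0.66). The difference was below 0 for Clca1 (-2.12), Kif26b (-2.01), Cntn4 (-1.91), Opn1sw (-1.80), Rln1 (-1.79), Nrxn3 (-1.78), Dpp10 (-1.76), Adgrb3 (-1.74), Syndig1l (-1.73), Nr1d1 (-1.72) and Cacnb2 (-1.65). Further genes below 0 were Ppp2r2b (-1.58), Wdr17 (-1.56), Ms4a1 (-1.33), Sv2b (-1.13), Prph2 (-0.87), Slc17a7 (-0.84) and Pde6b (-0.67). No group of 4 or more samples was available for a search for single outlying samples.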

How the results depend on the processing

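The values as deposited gave fewer calls than the 3 other scalings tried. Against 990 genes (615 higher, 375 lower), median centring gave 1825 (1076, 749), trimmed-mean scaling 2668 (1276, 1392) and quantile normalisation 3093 (1472, 1621). Quantile normalisation without the variance trend, an alternative chosen after seeing the data, gave 2917 (1372, 1545), and no variance trend on the deposited scale 647 with 210 lower. The fit of all 24 arrays gave 243 lower. Leaving out 1 control pool gave 598 to 1024 genes, 298 to 705 higher and 185 to 495 lower. Other pseudocounts, filters, probe set rules and robust eBayes gave totals of 717 to 1092. The cause of these shifts was not tested. The genotype difference of 29 genes became 2 with median centring, 0 with trimmed-mean scaling, quantile normalisation, no filter or no variance trend (1018, 1156, 970 and 657 genes at an unadjusted p under 0.05 by limma), and 2 to 100 when 1 pool was left out. The tissue difference of 139 became 288, 438 and 553 under median centring, trimmed-mean scaling and quantile normalisation, and 77 to 208 when 1 pool was left out.

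Pool numbers are shared by the groups. They did not pair day with night pools: deviations of same-numbered control pools correlated at -0.129, 0.14 and -0.131. Between the genotypes same-numbered pools deviated together at ZT6 (0.196, 0.355 and 0.322, against -0.332 to 0.014 for unlike numbers) and less clearly at ZT20 (0.201, 0.114 and 0.067, against -0.264 to 0.149). Those of gland and retina correlated at -0.211 to 0.084. With the pool number as a replicate block 1385 genes passed (851, 534), or 2358 (1373, 985) in a fit of the 6 arrays alone, the genotype difference passed for 51 genes and the tissue difference for 139.

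Of 109 named genes that passed, 31 lost the call with no variance trend, 25 with no filter, 23 with the mean of all probe sets and 7 to 27 when 1 pool was left out. Of named genes that had not passed, Otx2, Tef, Alpl and C1qb passed with trimmed-mean scaling and with quantile normalisation. C1qb passed also with median centring, and Gja1 and Pmp22 passed with quantile normalisation. Signs turned in genes near 0 that had not passed. Trimmed-mean scaling gave Ddc -0.0249, Rpl19 -0.0349, Rpl4 -0.0063 and Mcpt4 -0.0174. Quantile normalisation, with or without the trend, gave Cox7a2 0.0045 and Mcpt4 -0.0084. The mean of all probe sets gave Ddc -0.46, Sik1 -0.11, Cox6a1 0.0444 and Cryab -0.055. Leaving out 1 control pool at a time gave ranges of -0.0785 to 0.161 for Sik1, -0.0207 to 0.016 for Rpl19, -0.2778 to 0.2004 for Mcpt4, -0.1702 to 0.0455 for Arntl, -0.0518 to 0.0274 for Cox7a2, -0.0566 to 0.0649 for Ddc, -0.1184 to 0.0455 for Clock, -0.059 to 0.0114 for Cox6a1, -0.1029 to 0.4384 for Cma1 and -0.0086 to 0.078 for Rpl4. Changes of genes dim by day, such as Ifng and Cpm, are understated by the added 16 units.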
